A study of Mus musculus with 3 samples.

Results

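The Toll-like receptors described here were 10 mouse genes, *Tlr1*, *Tlr2*, *Tlr3*, *Tlr4*, *Tlr5*, *Tlr6*, *Tlr7*, *Tlr8*, *Tlr9* and *Tlr13*. They were chosen by gene name among the 36870 names of the array and were read by 21 of its 56605 probes. The study asked how LOC1 and LOC3, 2 strains of *Lactiplantibacillus plantarum* from fresh tea leaves, alter the response of macrophages to lipopolysaccharide (LPS), the ligand of TLR4. RAW macrophages, a macrophage-like line grown from a mouse tumour, were measured after LPS alone, after LOC1 followed by LPS and after LOC3 followed by LPS, with 1 single-colour Agilent array for each condition. The RNA was taken 3 h after LPS. The strains were given for 12 h by the design text and 24 h by the methods, and the sources give the LPS dose as 50 ng/mL (methods) or 100 ng/mL (results text). All these cells had received LPS, and unchallenged macrophages entered only as the denominator of the deposited ratios.

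Toll-like receptors are sentinels of the innate immune system that recognise conserved molecules of microbes through leucine-rich repeats and signal through a cytoplasmic TIR domain. One set sits on the cell surface and reads lipids, lipoproteins and flagellin, the other sits in endosomes and reads nucleic acids. In macrophages they signal through the adaptors MyD88 and TRIF to NF-kB and interferon regulatory factors, which drive cytokine and type I interferon genes.

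Each probe is a strand of 60 bases, and the sequences that carry the main values are given 5′ to 3′ so that each value can be tied to its target. The *Tlr3* result rested on a pair of probes that begin at bases 174 and 3557 of the transcript NM_126166, at chr8:46495198-46495257 and chr8:46481729-46481788 on the minus strand of mm9, the build of the array files. Their first 30 bases are shown.
Tlr3 probe near the start of the transcript: aaatcagaatgtacttggctttggaggttg
Tlr3 probe near its end: taatgctcatttttgagacgtttatagaat

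For *Tlr4* the probes disagreed, so the first 30 bases of the 3 are shown. The first 2 belong to the RefSeq transcript NM_021297 and lie at chr4:66500344-66500403 and chr4:66503724-66503782 on the plus strand of mm9. The last belongs to an Ensembl transcript, ENSMUST00000107365, and lies at chr4:66591199-66591258. It is 87417 bases from the nearest other *Tlr4* probe, whereas the RefSeq gene is 19031 bases long in GRCm38.p6, so its values may not describe the same transcript.
Tlr4 probe at base 619 of the RefSeq transcript: ccagagtttttccccaggaagtttctctgg
Tlr4 probe at base 3999 of the RefSeq transcript: tgtgatagggctttaaatagttgagctaat
Tlr4 probe of the Ensembl transcript: tcttccatagtttgtgcttcatgtccctgc

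The probes of *Tlr1* (chr5:65316115-65316174), *Tlr2* (chr3:83640344-83640403), *Tlr5* (chr1:184905770-184905829) and *Tlr13* (chrX:103354821-103354880) shown in full, with mm9 positions, are among those that carried the ratios to unchallenged cells. *Tlr1* and *Tlr5* each had a second such probe, which is not shown. Capitals mark a run of 7 bases that the *Tlr1* and *Tlr2* probes share. Over all pairs of probes of different receptors the longest shared run was 10 bases, between *Tlr3* and *Tlr13*.
Tlr1: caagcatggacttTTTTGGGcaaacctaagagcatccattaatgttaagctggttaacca
Tlr2: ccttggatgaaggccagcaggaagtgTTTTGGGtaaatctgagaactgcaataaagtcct
Tlr5: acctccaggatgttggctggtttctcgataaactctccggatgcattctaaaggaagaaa
Tlr13: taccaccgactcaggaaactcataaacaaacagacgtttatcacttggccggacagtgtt

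Intensities of a probe are given in the order LPS, LOC1, LOC3. Spot intensities were set against the 75th percentile of their array, 555 with LPS, 513 with LOC1 and 516 with LOC3, and differences are log2 values on that scale. Where a gene had several probes, the brightest stood for it, and a gene was called higher or lower at 2-fold. With 1 array per condition there was no replicate culture, so no test could be made, and the number of arrays limits the precision. The error given beside a difference is that of the scanner software for 1 spot on each array, 0.20 for the brightest probes of the 9 receptors well above background. A technical SD was taken from the spread within each array of probes printed 10 times. For a difference of 1 spot on each array it was 0.048 to 0.054 for bright probes, against 0.28 to 0.32 for dim ones. This SD does not cover the variation between arrays, and neither measure covers that between cultures. All 8 macrophage markers were well above background on every array, and their intensities summed to 453827, 337141 and 372210 on the LPS, LOC1 and LOC3 arrays. The macrophage markers ran both ways, from -1.65 and -1.42 for *Fcgr3*, which passed 2-fold with both strains, and -0.89 and -0.70 for *Csf1r* to 0.66 and 0.62 for *Mertk*. Of 6 markers of other cells, 4 were above background with LPS and 3 with each strain, with summed intensities of 560, 520 and 549. *Cd3e*, of T cells, read 396, 416 and 451, *Col1a1*, of fibroblasts, 53.9, 40.8 and 38.6, and *Pecam1*, of endothelium, 69.0, 46.7 and 42.3, each well above background throughout. *Ncr1*, a marker of natural killer cells, was not well above background on any array. The part of these differences in the receptor values was not tested.

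Of the 21 receptor probes, 18 were well above background on all 3 arrays and 1, a dim probe of *Tlr7*, on the LPS and LOC1 arrays. The remaining 2 were both probes of *Tlr5*, so 9 of the 10 receptors were measured. The plot of the levels of each probe shows all 21 on the 3 arrays.

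**Figure D1:**
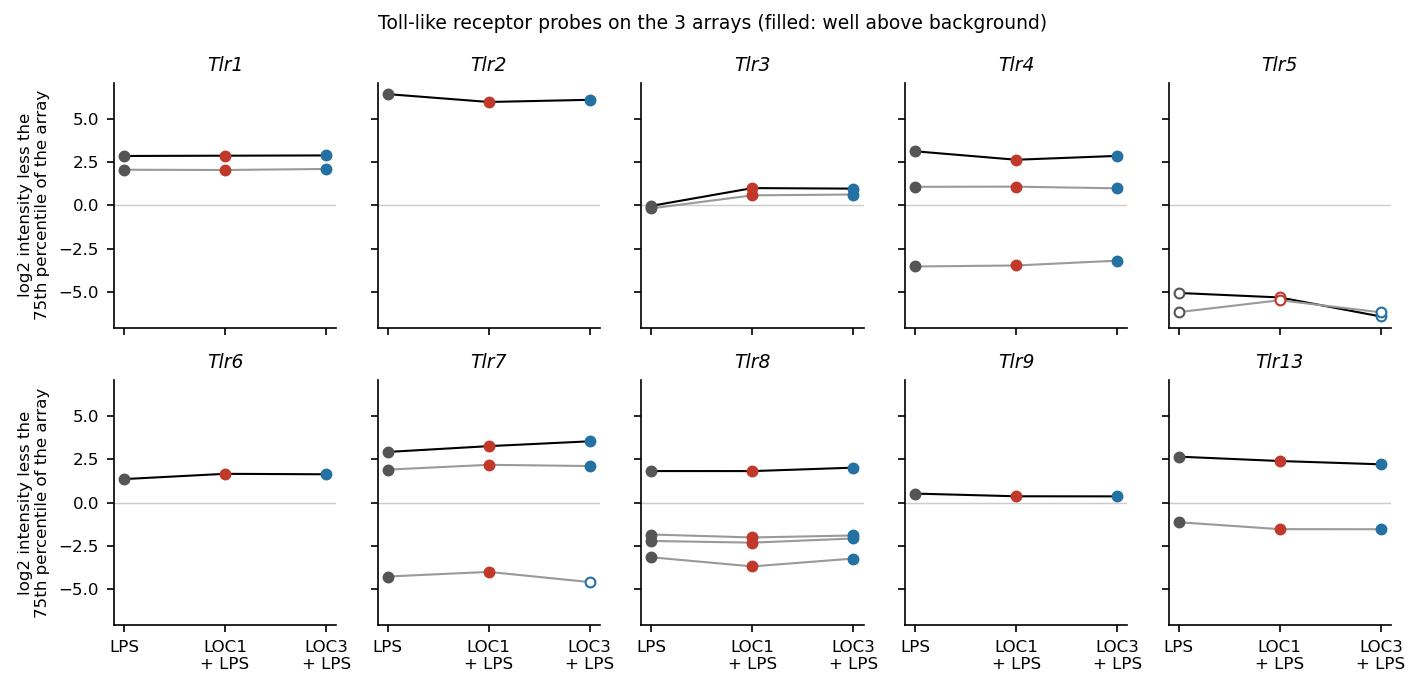
Level of each Toll-like receptor probe, as log2 intensity less the 75th percentile of its array, on the LPS, LOC1 + LPS and LOC3 + LPS arrays, 1 array each. Each line is 1 probe, the black line is the brightest probe of the gene, filled points were well above background and open points were not. *Tlr3* lay higher on both strain arrays, and the 2 *Tlr5* probes were open on every array.

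LPS was set against unchallenged macrophages through the ratios that the authors deposited, which give a value only where it differed by at least 2-fold. Of the receptor probes, 7 from 6 genes were listed higher, 4 from 3 genes lower and 10 were not listed. Of all 56605 probes, 7.08% were listed higher and 6.31% lower. *Tlr8* and *Tlr9* had no listed probe, which does not show that they differed by less than 2-fold.

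Among the surface receptors, the partners of the lipoprotein-sensing complexes were listed higher after LPS. *Tlr2*, which pairs with TLR1 or TLR6 to bind bacterial lipopeptides, had a log2 ratio of 3.56, or 11.8-fold. *Tlr1* was 5.79-fold and 5.59-fold higher by its 2 probes, with log2 ratios of 2.53 and 2.48. *Tlr6* was 2.22-fold higher, with a log2 ratio of 1.15. The 3 genes therefore lay on the same side of the unchallenged level, in the order *Tlr2*, *Tlr1*, *Tlr6*.

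The LPS receptor itself gave opposite readings. The RefSeq probe of *Tlr4* at base 3999 was 2.20-fold lower after LPS, a log2 ratio of -1.14. The probe of the Ensembl transcript was 2.18-fold higher, a log2 ratio of 1.12. The probe at base 619 was not listed, so no single direction can be given for *Tlr4*.

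*Tlr5*, the receptor of flagellin, lay lower after LPS by both probes, with deposited log2 ratios of -3.96 and -5.13. Neither probe stood well above background after LPS, so these are bounds. *Tlr5* was at least 15.5-fold lower by one and at least 16.6-fold lower by the other. The intensities implied for unchallenged cells were 259 and 271, against 16.7 and 7.75 with LPS.

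Among the endosomal receptors the listed ratios ran both ways. *Tlr3*, the sensor of double-stranded RNA, was 6.84-fold higher after LPS by the probe near the start of its transcript, a log2 ratio of 2.77. Its brightest probe was not listed. *Tlr13*, a sensor of bacterial ribosomal RNA, was 5.29-fold lower by 1 of its 2 probes, a log2 ratio of -2.40. *Tlr7*, a sensor of single-stranded RNA, was listed only by its dim probe, at 1.72, a ratio whose unchallenged side was under the lowest measurable signal, so *Tlr7* was at least 1.78-fold higher by that probe.

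The deposited ratios with each strain, which share the unchallenged denominator with those of LPS alone, lay on the same side for every probe that was listed on all arrays. *Tlr3* stood at 2.77 with LPS, 3.56 with LOC1 and 3.61 with LOC3. *Tlr2* stood at 3.56, 3.14 and 3.27. *Tlr13* stood at -2.40, -2.77 and -2.77. With both strains *Tlr3* thus stood further from the unchallenged level, and *Tlr2* nearer to it, than with LPS alone. The *Tlr4* probe of the Ensembl transcript was blank with both strains, and rebuilt from the intensities its log2 ratios were 0.64 and 0.86.

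**Figure D2:**
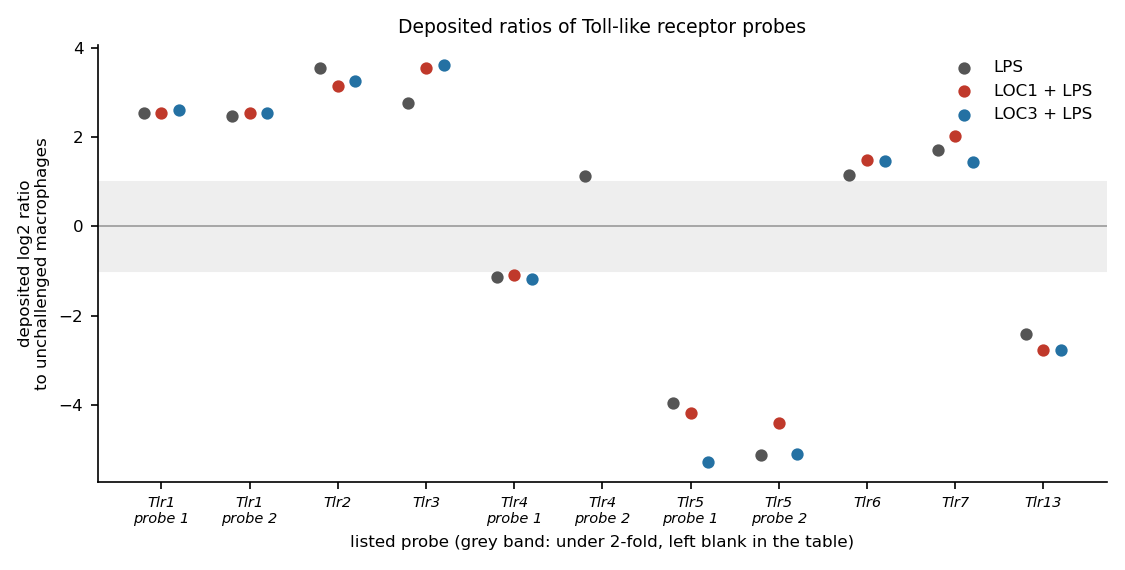
Log2 ratio to unchallenged macrophages, as deposited, of the 11 listed Toll-like receptor probes with LPS (grey), LOC1 + LPS (red) and LOC3 + LPS (blue), 1 array each, with values under 2-fold blank in the deposited table (grey band). *Tlr1*, *Tlr2*, *Tlr3*, *Tlr6* and *Tlr7* lay above the band, *Tlr5* and *Tlr13* below it, and *Tlr4* on both sides.

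Next, each strain before LPS was compared with LPS alone. *Tlr3* was the 1 receptor past 2-fold with LOC1, where it was higher, and none of the 9 was lower. Of all 20031 genes compared, 2.5% were higher and 3.85% lower. With LOC3, 0 of 9 were higher and 0 lower, against 3.02% and 3.2% of 19812 genes. The median difference over the receptors was -0.0028 with LOC1 and 0.031 with LOC3, and over all genes 0.0012 and 0.033. The receptors did not share a direction, with 4 higher and 4 lower on both strain arrays. The counts were 6 and 3 under median scaling, 3 and 5 under quantile normalization and 4 and 3 with RefSeq probes alone. They include *Tlr1* and *Tlr9*, whose differences were within the scanner error. Above 0 lay 4 of 9 receptors with LOC1 and 5 of 9 with LOC3, against 10040 of 20031 and 10701 of 19812 genes. *Tlr3* and *Tlr6* were higher, and *Tlr2* and *Tlr13* lower, with both strains under every alternative that gave them a value. Both comparisons share the LPS array.

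The brightest probe of *Tlr3* read 544 on the LPS array, 1024 on that of LOC1 and 1009 on that of LOC3. The differences were 1.03 with LOC1, or 2.04-fold, and 0.99 with LOC3, or 1.99-fold. The value with LOC3 fell just short of the threshold, and with the percentile taken over probes in place of spots the differences were 1.06 and 1.03, past 2-fold with both strains. The call with LOC1 was lost with normexp background correction, at 0.95, and with the mean of the detected probes, at 0.89. *Tlr3* therefore sat at the threshold, while the strains themselves differed by 0.031 ± 0.20 (scanner error, 1 array each).

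The *Tlr3* probe near the start of the transcript read 492 with LPS, 766 with LOC1 and 797 with LOC3. Its differences were 0.75 and 0.80, in the same direction and under 2-fold. All 4 values of *Tlr3* were at least 3 times the scanner error. Of 17400 genes that passed the background flag on every array, 298 had a larger value than *Tlr3* with LOC1 and 282 with LOC3. By the distance between the 2 differences, over these 3 arrays, the genes nearest to *Tlr3* were *Tmem67*, *Ifi209* and *Lcn2*, at 0.0053, 0.0078 and 0.010. There were 46 genes within 0.1.

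**Figure D3:**
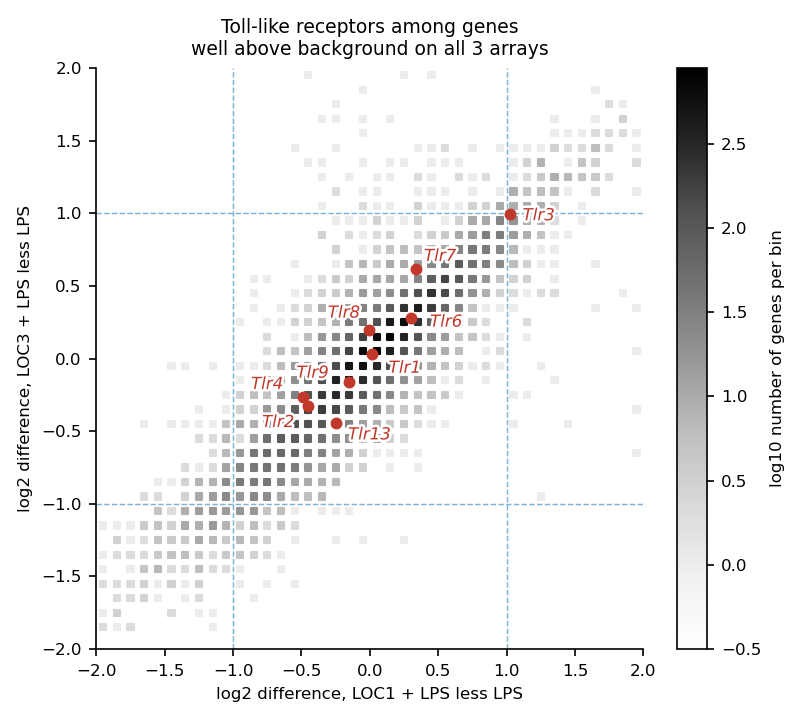
Log2 difference from the LPS array with LOC1 (horizontal) and with LOC3 (vertical) for the 17400 genes that passed the background flag on every array, as grey squares shaded by the number of genes, with the 9 measured Toll-like receptors in red. Dashed lines mark 2-fold, and 99 genes beyond the axes are not drawn. *Tlr3* sits at the corner of the 2-fold lines and the others inside them.

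The other endosomal receptors stayed under 2-fold. *Tlr7* had intensities of 4233, 4940 and 6031 by its brightest probe, with differences of 0.34 with LOC1 and 0.61 with LOC3. Its second probe read 2086, 2342 and 2243, with differences of 0.28 and 0.21. Both probes were higher with each strain, although the larger value with LOC3 was seen by 1 of them alone. The dim *Tlr7* probe, tied to another transcript, read 29.1, 32.3 and 21.6 and was not above background with LOC3.

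*Tlr8*, another sensor of single-stranded RNA, had intensities of 1973, 1821 and 2103 by its brightest probe, with differences of -0.0028 and 0.20. Its other RefSeq probes read 120, 104 and 124, and 156, 128 and 140, each difference within the scanner error. The probe of an Ensembl transcript read 62.7, 40.3 and 55.5, a difference of -0.53 ± 0.25 with LOC1 and -0.072 ± 0.25 with LOC3. The 4 probes of *Tlr8* thus gave no common direction with LOC3. With LOC1 all 4 read lower, at -0.0028, -0.097, -0.17 and -0.53, and only the last exceeded its scanner error. Under median scaling the brightest probe turned to 0.22 with LOC1.

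*Tlr9*, the receptor of unmethylated CpG DNA, was read by 1 probe, with intensities of 801, 665 and 667. Its difference was -0.16 with each strain, within the scanner error, and its sign turned under median scaling, to 0.065 and 0.037. *Tlr13* had intensities of 3507, 2726 and 2403 by its brightest probe, with differences of -0.25 and -0.44. The second probe of *Tlr13* read 255, 179 and 179, with a difference of -0.40 with each strain. Both *Tlr13* probes were thus lower with each strain by more than the scanner error and by less than 2-fold.

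Of the surface receptors, *Tlr2* lay lower with both strains. It read 47441, 32047 and 35162 in that order of arrays. The differences of -0.45 and -0.33 exceeded the scanner error and stayed under 2-fold. Its partners behaved otherwise. *Tlr1* read 3999, 3740 and 3803 by its brightest probe, with differences of 0.016 and 0.031, and 2307, 2111 and 2215 by the other, with -0.016 and 0.045. *Tlr6* read 1431, 1633 and 1613, with differences of 0.30 and 0.28. The lipopeptide receptors therefore lay lower (*Tlr2*), level within the scanner error (*Tlr1*) and higher (*Tlr6*) than with LPS alone, none past 2-fold.

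For *Tlr4* the Ensembl probe, which was the brightest, read 4824, 3181 and 3732, with differences of -0.49 and -0.27. The RefSeq probe at base 3999 read 1166, 1084 and 1021, with differences of 0.0074 and -0.088. The RefSeq probe at base 619 was dim, at 48.1, 46.4 and 56.6, with differences of 0.059 and 0.34. The lower value of *Tlr4* was thus seen by the Ensembl probe alone. The *Tlr5* probes read 16.7, 12.9 and 6.07, and 7.75, 11.6 and 7.16, and since neither was well above background no difference is given.

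**Figure D4:**
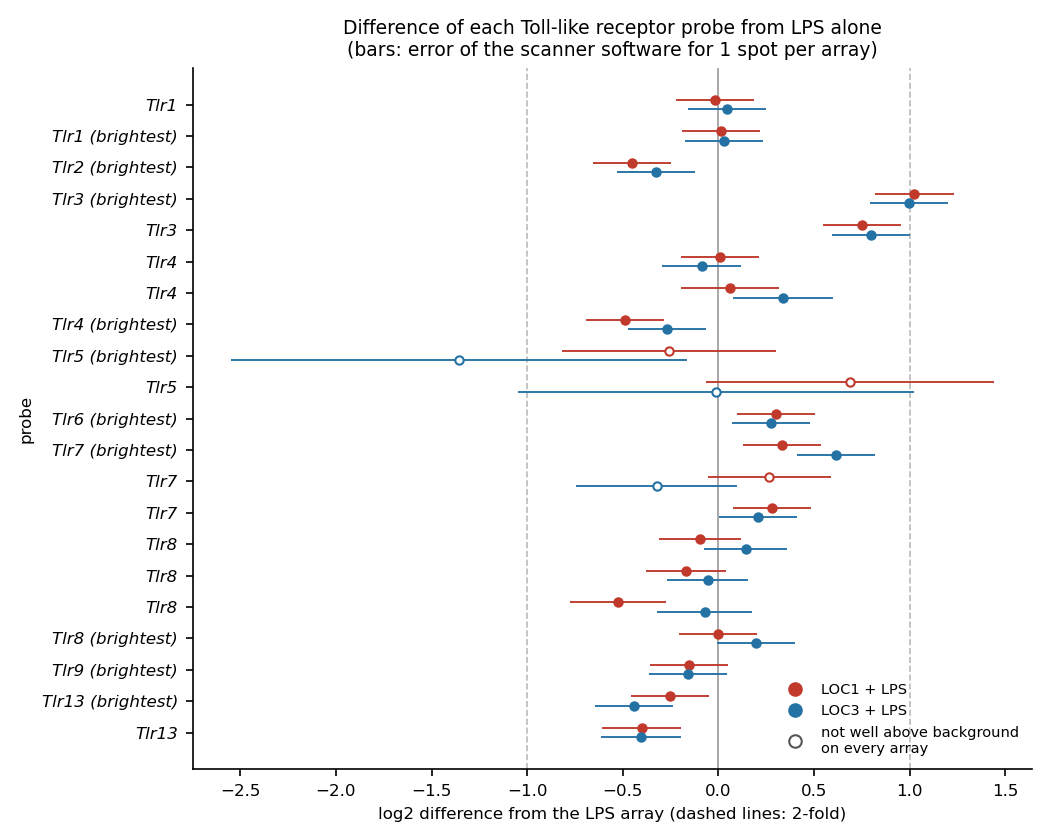
Log2 difference from the LPS array of each of the 21 Toll-like receptor probes with LOC1 (red) and LOC3 (blue), 1 array each, with bars for the scanner error of 1 spot per array and dashed lines at 2-fold. Of the 18 probes well above background on every array (filled), both *Tlr3* probes lay farthest to the right.

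The strains were also compared with each other, on arrays that are independent of the LPS array. None of the 9 receptors differed by 2-fold between LOC1 and LOC3, against 0.804% of 19398 genes higher with LOC1 and 1.89% lower. The differences of the brightest probes ran from -0.28 for *Tlr7*, lower with LOC1, to 0.19 for *Tlr13*, higher with LOC1. Those of *Tlr7* and *Tlr4*, at -0.28 and -0.22, exceeded the scanner error of 0.20, and the other 7 did not. A second *Tlr7* probe gave 0.071 and the RefSeq *Tlr4* probe at base 3999 gave 0.095, both on the other side of 0, whereas the dim *Tlr4* probe at base 619 gave -0.28 ± 0.26. The probes of each of these genes thus disagreed. All 4 *Tlr8* probes read lower with LOC1 than with LOC3, at -0.20, -0.24, -0.11 and -0.45, and the 2 at -0.24 ± 0.22 and -0.45 ± 0.26 exceeded their scanner error.

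The genes around the receptors were taken from a list of 38, of which 34 were measured. With each strain 0 were higher and 1 was lower by 2-fold, a share near that over all genes (2.5% higher and 3.85% lower with LOC1, 3.02% and 3.2% with LOC3). The median difference over the list was 0.026 with LOC1 and 0.051 with LOC3, against 0.0012 and 0.033 over all genes. *Tlr11* and *Tlr12*, the other mouse members of the family, were not well above background on any array, and neither were the ligand carriers *Cd36* and *Lbp*.

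The gene past 2-fold was *Il1rl1*, which encodes ST2, the receptor of IL-33 and a brake on TLR signalling. It read 534, 159 and 172 on the LPS, LOC1 and LOC3 arrays, with differences of -1.64 and -1.53. The other *Il1rl1* probes were not well above background, except 1 of them with LOC3. In the setting that takes the mean of the detected probes, the differences of *Il1rl1* were -0.85 and -0.44, short of 2-fold. The value of -0.85 with LOC1 took in a probe not well above background on the LPS or the LOC1 array. Between these arrays only the brightest probe was well above background, at -1.64. The other 5 inhibitors stayed under 2-fold. *Irak3*, which encodes the inhibitory kinase IRAK-M, had the largest value of the IRAK and TRAF genes. It read 3571, 5855 and 6180, with differences of 0.83 and 0.89. All 3 *Irak3* probes were higher with both strains, from 0.83 to 0.85 with LOC1 and from 0.79 to 1.06 with LOC3.

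Of the endolysosomal proteases that cut the nucleic acid sensors, 0 of 4 passed 2-fold, with differences from 0.012 to 0.73 with LOC1 and from 0.13 to 0.74 with LOC3. *Ctsl*, which encodes cathepsin L, had the largest value, at 69831, 106912 and 108183, with differences of 0.73 and 0.74. Among the chaperones *Cnpy4*, a partner of surface receptors in the endoplasmic reticulum, had the largest value, with intensities of 383, 254 and 241 and differences of -0.48 and -0.56. Among the TIR adaptors it was *Ticam2*, the bridge of TLR4 to TRIF, a dim gene at 23.9, 28.2 and 31.4, with differences of 0.35 and 0.50.

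Among the co-receptors *Ly96*, which encodes MD-2, the LPS-binding partner of TLR4, had the largest value. Its brightest probe read 2868, 1778 and 1862, with differences of -0.58 and -0.52. Its other probe read 304, 423 and 460, with differences of 0.59 and 0.70, so *Ly96* has no settled direction.

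**Figure D5:**
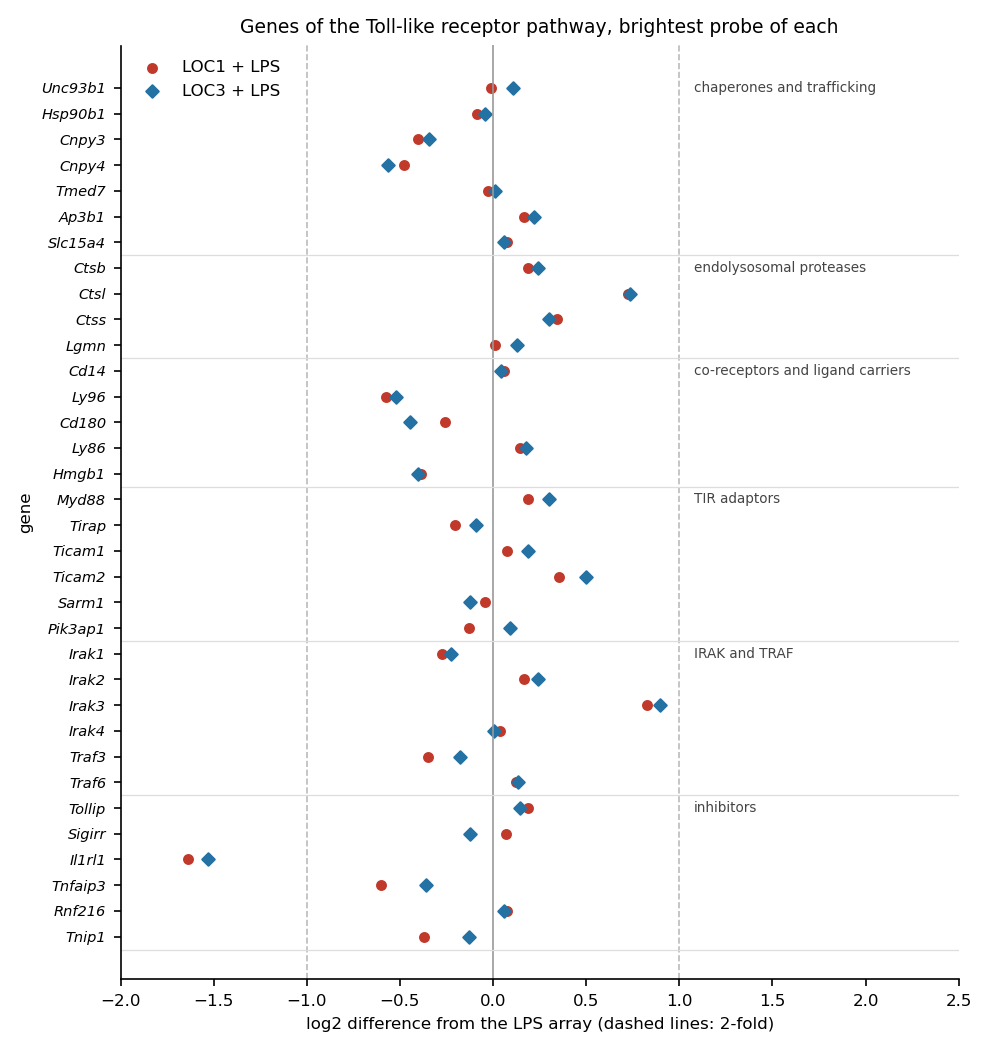
Log2 difference from the LPS array with LOC1 (red circles) and LOC3 (blue diamonds), 1 array each, of the 34 measured genes around the Toll-like receptors, grouped by role, with dashed lines at 2-fold. *Il1rl1* lay beyond the line on the lower side with both strains, and *Irak3* and *Ctsl* lay nearest to it on the higher side.

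The promoters of *Tlr2* and *Tlr3* are shown because these receptors had the highest listed ratios to unchallenged cells. RefSeq promoter windows of GRCm38.p6 were held for 8 of the 10 receptors, without *Tlr4* and *Tlr7*, in 10 windows. The 250 bases upstream of each start were searched on both strands for the NF-kB consensus and for the core of the interferon-stimulated response element, written as GAAA, any 2 bases and GAAA again. The NF-kB consensus was in 3.90% of 32851 windows and in 2 of the 10 receptor windows, those of *Tlr2* and *Tlr3*. The response element was in 2.98% of all windows and in 1 receptor window, of *Tlr6*. Capitals mark the NF-kB matches, which in *Tlr2* are 3 overlapping matches over both strands. A match describes these letters alone.
Tlr2, chr3:83841609-83841858, minus strand: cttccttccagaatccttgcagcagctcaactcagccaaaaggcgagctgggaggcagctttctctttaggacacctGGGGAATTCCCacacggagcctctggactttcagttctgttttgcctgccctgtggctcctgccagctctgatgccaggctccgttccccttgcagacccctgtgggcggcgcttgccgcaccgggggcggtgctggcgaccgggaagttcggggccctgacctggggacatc
Tlr3, chr8:45410381-45410630, minus strand: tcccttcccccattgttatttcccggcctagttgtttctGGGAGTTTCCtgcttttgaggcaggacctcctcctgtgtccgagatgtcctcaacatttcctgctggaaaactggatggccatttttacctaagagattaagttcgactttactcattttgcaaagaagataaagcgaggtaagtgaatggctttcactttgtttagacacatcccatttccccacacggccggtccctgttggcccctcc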

How the data were processed

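RNA of RAW macrophages was measured on 3 single-colour Agilent mouse arrays, 1 per condition. The deposited intensity values were made by the authors in Feature Extraction, which subtracts the background and a spatial trend, without normalization between arrays. The log2 ratios to unchallenged macrophages were deposited by the authors with values under 2-fold blank. limma and R 3.2.5 are named in the submitters' processing notes.

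From the intensities, outlier spots were left out, spots of a probe were averaged, and log2 values were taken less the 75th percentile over all non-control spots of the array. Probes not well above background were raised to the lowest signal that was. A gene entered a comparison if its brightest probe passed the background flag on either array. The percentile was first taken over probes, then over spots without outliers. It was set to all spots after the values had been seen, to match the processing described for the series. This changes the call of *Tlr3* with LOC3. The choice of the brightest probe was likewise written only in part beforehand. All 10 receptors with every probe are named. From the list around them, each gene past 2-fold and the gene of largest mean absolute difference per role are named, and for the receptor of largest difference its 3 nearest genes. Receptors, lists and rules were chosen with earlier results of these data known. The methods' t-test needs replicates and was not run. Of the 21 receptor probes, 18 were tied to a RefSeq transcript, and all 18 matched the symbol. The calculation was tested on simulated data. Python 3.11.15, numpy 2.4.6, pandas 2.3.3, matplotlib 3.10.9, R 4.3.3 and limma 3.58.1 (normexp, offset 50) were used.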

Additional observations from a re-analysis of the deposited data

How the results depend on the processing

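Of 212 alternative values for the receptors against LPS, 201 kept their sign, 11 changed it, and 0 called values reversed. Keeping outlier spots or altering the background filter and floor could not move the measured receptors, so those values kept their sign by construction. In the main setting only *Tlr3* with LOC1 was past 2-fold, so only that call could reverse. Between the strains, the sign of *Tlr1*, *Tlr3*, *Tlr4* and *Tlr7* depended on the setting. *Tlr3* ranged from 0.79 to 1.25 with LOC1 and from 0.84 to 1.19 with LOC3, so its side of 2-fold depended on the setting. Its call with LOC1 was lost (0 receptors higher) with the percentile over probes detected on all arrays, normexp, the mean of the detected probes, a 3-fold threshold and the deposited ratios. Its call with LOC3 was gained (1 receptor higher) with median scaling and with the percentile over probes, an alternative added after the data were seen, as were the percentile over spots without outliers (1.02 and 0.99) and RefSeq probes alone. Probe by probe, the deposited ratios differ from the values here by a constant 0.033 with LOC1 and 0.037 with LOC3, but they do not list the brightest probes of *Tlr3*, *Tlr7* and *Tlr13*, and with both strains leave that of *Tlr4* blank, so other probes stood for these genes (*Tlr3*, 0.79 and 0.84).

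*Tlr5*, never well above background, gave 1 receptor lower with LOC3 and 1 higher with LOC1 than with LOC3, both without filter or floor and in the deposited ratios. The receptor median with LOC1 was 0.22 under median scaling, -0.079 without filter and floor and -0.14 for the mean of probes. With LOC3 it was 0.23 under median scaling, -0.035 under quantile normalization, -0.065 without filter and floor and -0.17 in the deposited ratios. Median scaling moved the median of all genes alike, to 0.22 and 0.23. In the list around the receptors, 1 gene was higher with each strain under median scaling (*Irak3*, 1.05 and 1.09). With the mean of probes 0 were lower with either strain (*Il1rl1*, -0.85 and -0.44). With LOC1 that mean took in an *Il1rl1* probe not well above background on either array. With a 3-fold threshold 0 were lower with LOC3. The cause was not tested. No paired analysis was possible because each condition had 1 array, and no array could be left out for the same reason. Signal over background limits *Tlr5* and the dim probes of *Tlr4*, *Tlr7* and *Tlr8*.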
